A study of Mus musculus with 23 samples.

Results

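Macrophages taken from HPV-negative MEER tumours were compared with cultured cells of the tumour line itself, using 6 of the 23 RNA sequencing libraries in the series. Members were defined by their labels. They were 3 macrophage libraries, numbered 1, 2 and 4, and 3 libraries of the line, numbered 1, 2 and 3. The members and the gene lists were chosen with earlier results of these data known. The macrophages were CD45+ CD11b+ Gr1- F4/80hi cells sorted from subcutaneous HPV-negative MEER tumours in C57/Bl6 mice, and each library pooled cells of 3 to 4 animals. The line libraries came from HPV-negative MEER cells kept in culture, which derive from epithelium of the mouse oropharynx, were transformed with activated Ras and carry no papillomavirus oncogenes. No further treatment is given for either group, and the labels used here give neither age nor sex of the mice. The line, of the same C57/Bl6 strain, is 1 line, and its libraries are called replicate aliquots in one label and biological replicate preparations in another, so the p-values reflect the spread among these libraries alone, and that spread may be technical. Cell type and setting (tumour in the animal, cells in a dish) change together and cannot be told apart.

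Tumour-associated macrophages develop largely from blood monocytes that enter the tumour, and they depend on signalling through the receptor CSF1R, a tyrosine kinase whose ligands are CSF1 and IL-34. Tumour cells and macrophages exchange further signals, in which one cell secretes or displays a ligand and the other carries its receptor. Expression of a ligand in one cell and its receptor in the other allows such a signal, and transcript levels do not measure the protein, its release or its binding.

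The 6 libraries held 27944725 to 36324706 counts each, so that a level of 1 CPM, the unit of counts scaled to library size, stood for 27.9 to 36.3 counts. The 11 macrophage markers summed to 21220.5, 23594 and 18907 CPM in macrophage libraries 1, 2 and 4, against 37.2, 33.7 and 43.8 CPM in line libraries 1, 2 and 3. The 14 squamous epithelial markers summed to 133, 115 and 212 CPM in the macrophages, against 714, 704 and 969 CPM in the line. The line carried the epithelial label only in part: the keratin Krt8 stood at 148, 125 and 227 CPM there, whereas the basal keratin Krt14 stood at 2.96, 2.1 and 1.97 CPM and E-cadherin (Cdh1), a defining epithelial adhesion gene, at 1.89, 1.31 and 2.36 CPM. Cdh1 was higher in the macrophages, at 67.5, 51.4 and 45.5 CPM. Among other cell types, the 8 T cell markers summed to 77.4, 75.9 and 46.8 CPM in macrophages and to 2.56 to 3.78 CPM in the line, and 7 of 8 were called higher in macrophages. Cd4 gave 24, 50.4 and 7.96 CPM of the macrophage sums, and most of the line sum was Lck, the marker not called. The 5 natural killer cell markers summed to 36.1, 19.5 and 16.5 CPM in macrophages and to 0 to 0.0463 CPM in the line, with all 5 called higher in macrophages. The 7 neutrophil markers summed to 63.3, 56.6 and 44.4 CPM in macrophages and to 0.0545 to 0.139 CPM in the line. Most of this sum was Csf3r, the receptor of granulocyte colony-stimulating factor, at 61.2, 55.5 and 39 CPM in macrophages, and 3 of the 7 were called higher there, while Ly6g and Mpo had 0 counts in every macrophage library. The 4 eosinophil markers summed to 3.72, 5.43 and 3.72 CPM in macrophages and to 0 to 0.116 CPM in the line, with 2 called higher in macrophages (Siglecf and Ccr3) and Prg2 and Epx at 0 in every macrophage library. The 7 dendritic cell markers summed to 16.1, 10.5 and 13.8 CPM in macrophages and to 0.732 to 1.23 CPM in the line. The 5 B cell markers summed to 9.44, 6.88 and 13.3 CPM, against 0.0545 to 0.0916 CPM. The 5 endothelial markers summed to 38.3, 33.8 and 19.9 CPM, against 0.902 to 1.31 CPM. Called higher in macrophages were 6, 4 and 3 of these, and 1 endothelial marker was called higher in the line. Of all genes tested, 38.7% were called higher in macrophages. The part of such cells in the results was not tested.

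Macrophage library 4 stood apart from the other macrophage libraries. It was the highest of the 3 in 70% of genes at least 4-fold higher in the line, against 40.8% of all genes tested. It was the lowest of the 3 in 55.9% of genes at least 4-fold higher in macrophages, against 38.4% of all genes tested. The 8 fibroblast markers, of which the line carries some, summed to 16.4, 15.9 and 95.3 CPM in macrophage libraries 1, 2 and 4, against 156, 237 and 239.9 CPM in the line. Most changes of genes high in the line are therefore given with and without this library. In bulk libraries, more cells of a kind and more RNA per cell cannot be told apart.

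**Figure D1:**
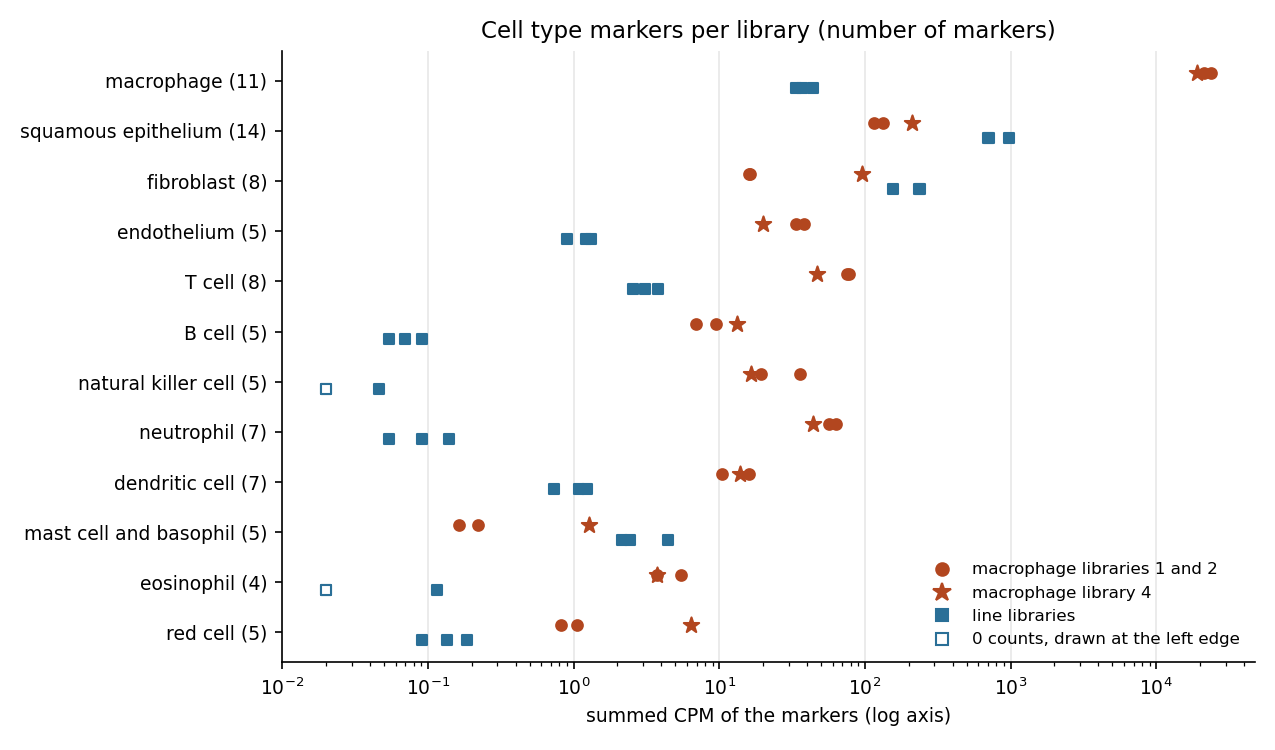
Summed CPM (log axis) of the markers of 12 cell types in each library, with macrophage libraries in the upper row of each cell type and line libraries in the lower one. Macrophage markers sum to 18907 to 23594 CPM in macrophages and 33.7 to 43.8 CPM in the line, and macrophage library 4 (star) has the highest squamous (212 CPM) and fibroblast (95.3 CPM) sums among the macrophages.

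Of 15835 genes tested, 6131 were called higher in macrophages (38.7%) and 5924 higher in the line (37.4%) with edgeR at an adjusted p of 0.05, so that 76.1% of all genes were called. Since a call alone separates little between cells this different, a gene was placed on a side only where it was called and at least 4-fold apart. This put 2665 genes (16.8%) on the macrophage side and 2246 genes (14.2%) on the line side. Without macrophage library 4 these were 2708 and 2507, of which 2604 and 2195 were the same genes. With scaling by total counts in place of TMM, 4882 genes were called higher in macrophages and 7316 higher in the line, and the median log2 change of all genes moved to -0.30 from 0.01. With the 6 libraries fitted alone, 5396 genes were called higher in macrophages and 5122 higher in the line. Of these, 2361 and 2016 were at least 4-fold apart. Log2 changes below are macrophages minus line, and 3 libraries stand on each side throughout. The ± after a log2 change is an approximate standard error, the size of the change over the square root of edgeR's F statistic.

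The largest rises were in genes of blood cell signalling and adhesion with no or almost no counts in the line. Pf4, which encodes platelet factor 4, a chemokine also made by macrophages, stood at 532, 588 and 478 CPM in macrophage libraries 1, 2 and 4 and at 0 in every line library. This is at least 20014-fold higher, measured against a floor of 3 counts over the line libraries. Vav1, a guanine nucleotide exchange factor of blood cells, stood at 328, 326 and 249 CPM in macrophages and at 0 in the line, which is at least 11302-fold higher. The monocyte-attracting chemokine Ccl12, the integrin Itga4, the lectin receptor Clec4a3, the cytokine receptor Il21r and the proton-sensing receptor Gpr65 had 0 counts in the line too, with bounds of 9867, 5798, 5375, 4991 and 4130.2-fold. Bcl2a1b, an anti-apoptotic gene, was at 234, 269 and 201 CPM in macrophages and at 0 in the line, but near-identical copies of it exist and its reads may be divided among them. Tyrobp, the adaptor DAP12 of activating myeloid receptors, was at 898, 975 and 729 CPM in macrophages and at 0.0305, 0.0273 and 0 CPM in the line. Cd52, a small surface glycoprotein of leukocytes, was at 461, 465 and 359.6 CPM in macrophages and at 0, 0.0273 and 0 CPM in the line.

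Genes with the largest falls were below 1 CPM in every macrophage library. Cxadr, an adhesion molecule of epithelial junctions, had 0.493, 0.189 and 0.915 CPM in macrophages, against 311, 309.7 and 230.2 CPM in line libraries 1, 2 and 3. Its log2 change was -9.04 ± 0.32 (edgeR adjusted p = 3.1e-13), and -9.68 without macrophage library 4. Snai2, which encodes the transcriptional repressor SLUG of epithelial to mesenchymal transition, had 0.164, 0.0947 and 0.732 CPM in macrophages, against 134, 113 and 72.9 CPM in the line. Its log2 change was -8.29 ± 0.44 (edgeR adjusted p = 7.3e-11), and -9.64 without library 4. Ces2g, a carboxylesterase, had 0, 0 and 0.122 CPM in macrophages and 30.2, 31.4 and 39.9 CPM in the line. Fmod, the collagen-binding proteoglycan fibromodulin, had 0, 0.0316 and 0.214 CPM in macrophages and 11.8, 41 and 46.3 CPM in the line. Prr32 and Pakap had 0 counts in all 3 macrophage libraries, with levels at least 969 and 449-fold lower than in the line. The transcription factor gene Foxd1, the adenylate cyclase Adcy1, the fatty acid elongase Elovl4 and the membrane protein gene Slitrk5 had at most 3 counts summed over the macrophages, against 10.7 to 37.2 CPM in single line libraries.

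Promoter sequence is shown for a few of the genes described here, to set their motifs for factors known in either kind of cell beside the share of all promoters that hold them. The 250 bases before each start site were read from RefSeq promoters of build GRCm38.p6, which covered 11327 of the 15835 genes tested, and matches were counted on both strands. The motif GAGGAAGT, bound by the myeloid factor PU.1 (Spi1), stood in 109 of 1813 macrophage-side promoters (6.01%), 38 of 1556 line-side promoters (2.44%) and 3.21% of all genes tested. Among named macrophage-side genes it stood in 5 of the 48 with a promoter, which include both of the largest rises, Pf4 and Vav1, within 11 bases of the start site. The other 3 were Bcl2a1b, C1qc, a chain of the complement protein C1q, and Mmp12, macrophage elastase. None of the 15 macrophage-side genes of split pairs with a promoter held it. Capitals mark the match in each of 4 of these promoters, written 5′ to 3′ along the gene's strand.
Pf4 (chr5:90772185-90772434, plus strand): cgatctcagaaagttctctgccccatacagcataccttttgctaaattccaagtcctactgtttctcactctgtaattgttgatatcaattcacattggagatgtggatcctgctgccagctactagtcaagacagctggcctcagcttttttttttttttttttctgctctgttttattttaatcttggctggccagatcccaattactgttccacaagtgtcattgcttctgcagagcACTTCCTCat
Vav1 (chr17:57278850-57279099, plus strand): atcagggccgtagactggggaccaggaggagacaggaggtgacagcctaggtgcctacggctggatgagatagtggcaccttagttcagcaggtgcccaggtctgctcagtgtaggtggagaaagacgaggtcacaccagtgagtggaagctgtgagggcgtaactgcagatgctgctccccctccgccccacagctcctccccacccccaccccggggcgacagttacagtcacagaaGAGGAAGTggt
C1qc (chr4:136892915-136893164, minus strand): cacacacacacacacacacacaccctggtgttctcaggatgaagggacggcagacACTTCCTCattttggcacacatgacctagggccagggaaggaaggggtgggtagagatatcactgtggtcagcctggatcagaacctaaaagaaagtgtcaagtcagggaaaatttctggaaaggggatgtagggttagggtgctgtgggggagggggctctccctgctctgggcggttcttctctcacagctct
Mmp12 (chr9:7344147-7344396, plus strand): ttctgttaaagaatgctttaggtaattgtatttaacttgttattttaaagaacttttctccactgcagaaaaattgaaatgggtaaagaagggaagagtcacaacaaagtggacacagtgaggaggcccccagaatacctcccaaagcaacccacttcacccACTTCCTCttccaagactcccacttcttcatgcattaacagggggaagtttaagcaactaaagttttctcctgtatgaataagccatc
A match on the opposite strand appears as the reverse complement of the motif. The match began 10 bases before the start in Pf4, 11 in Vav1, 195 in C1qc and 88 in Mmp12. The AP-1 motif TGANTCA stood in 8.6% of macrophage-side, 7.9% of line-side and 5.9% of all tested promoters. Among split-pair genes it stood in 3 of 15 macrophage-side promoters (20%) and 2 of 15 line-side ones (13.3%), and among genes named by rule in 7 of 48 macrophage-side (14.6%) and 2 of 36 line-side ones (5.56%). It is shown for the line-side genes of split pairs that held it, the cytokine gene Lif and the receptor gene Met, 228 and 54 bases before the RefSeq start. The GENCODE start of Met, given further below, lies inside its window and ahead of the match, so that by GENCODE the match is within the gene.
Lif (chr11:4257318-4257567, plus strand): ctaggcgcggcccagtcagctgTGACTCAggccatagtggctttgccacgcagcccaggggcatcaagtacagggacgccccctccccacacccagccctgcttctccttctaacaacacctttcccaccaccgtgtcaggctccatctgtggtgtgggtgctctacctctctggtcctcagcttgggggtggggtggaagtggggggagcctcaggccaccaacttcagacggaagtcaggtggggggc
Met (chr6:17463707-17463956, plus strand): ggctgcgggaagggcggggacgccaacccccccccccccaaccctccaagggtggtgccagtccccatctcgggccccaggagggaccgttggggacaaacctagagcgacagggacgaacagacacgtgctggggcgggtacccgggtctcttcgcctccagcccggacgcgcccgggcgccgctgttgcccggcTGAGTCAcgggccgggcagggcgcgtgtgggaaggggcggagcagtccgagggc
The motif GGAATG of TEAD factors stood in 12.9% of macrophage-side, 16.3% of line-side and 12.8% of all tested promoters. A match is a description of these letters in the window and not a measured binding site.

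A hand-written list of 252 ligand-receptor pairs was sorted by the side of each partner. Of its ligand genes 167 were tested, with 59 on the macrophage side (35.3%) and 54 on the line side (32.3%). Of its receptor genes 155 were tested, with 69 on the macrophage side (44.5%) and 32 on the line side (20.6%). The median log2 change was -0.23 for ligands and 1.65 for receptors, against 0.01 for all genes tested. Line and macrophage stood on opposite sides in 21 pairs: 12 had the ligand on the line side and the receptor on the macrophage side, and 9 ran the other way. Both partners were on the macrophage side in 42 pairs and on the line side in 23. Of these, 18 and 5 had a partner under 5 CPM on its high side. Without macrophage library 4 the split pairs were 15 and 12, including all of those in the main counts. These counts describe a chosen list, and several pairs share a gene.

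**Figure D2:**
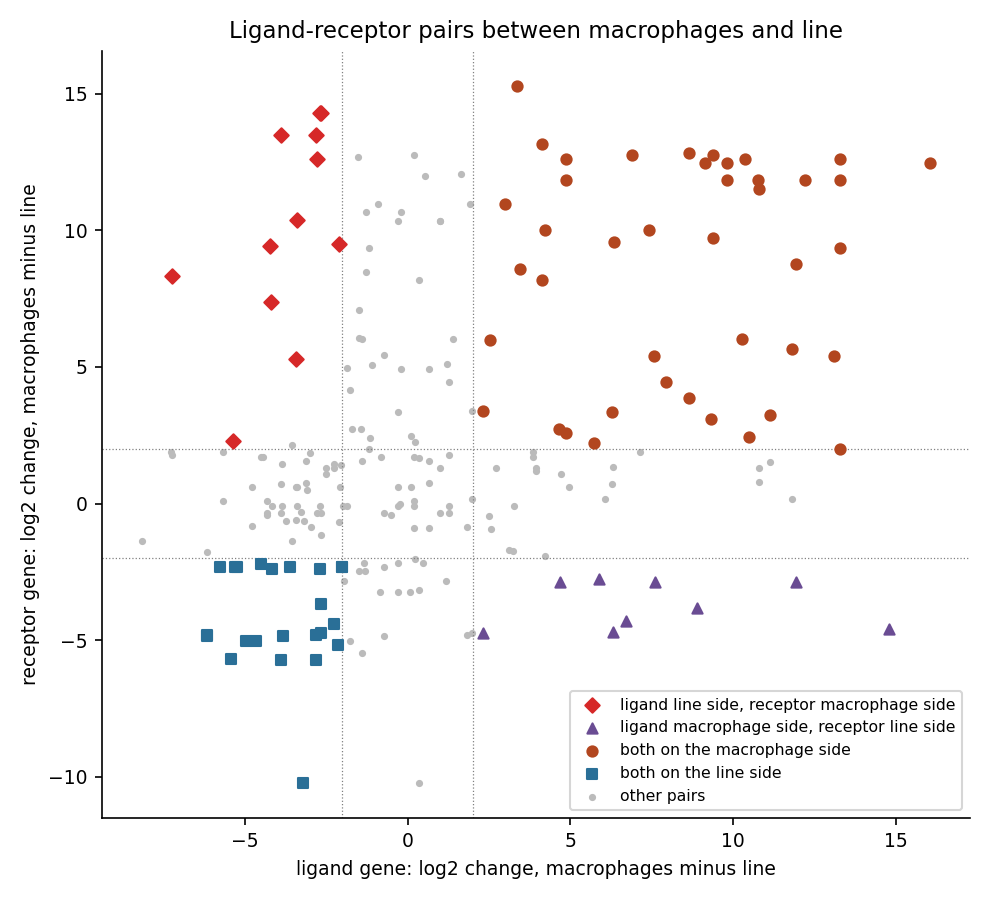
Each point is a ligand-receptor pair, placed by the log2 change (macrophages minus line) of its ligand gene (horizontal axis) and its receptor gene (vertical axis), with dotted lines at 4-fold. The 12 diamonds have a line-side ligand and a macrophage-side receptor, the 9 triangles the reverse, and 42 and 23 pairs have both partners on the macrophage or the line side.

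Both ligands of the CSF1 receptor were on the line side and the receptor on the macrophage side. Csf1, the macrophage growth factor (chromosome 3, 107741048 to 107760469 of GRCm38), stood at 21.5, 23.6 and 51.8 CPM in macrophage libraries 1, 2 and 4, against 555, 514 and 356 CPM in line libraries 1, 2 and 3. The groups did not overlap, as in 75.9% of all genes tested, and macrophage library 4 was the highest of the macrophages. The log2 change was -3.88 ± 0.36 (edgeR adjusted p = 6.7e-08), that is 14.7-fold lower in macrophages, and -4.38 without macrophage library 4. Il34, the second ligand of the same receptor, had 1.12, 1.1 and 5.25 CPM in macrophages and 13.4, 16.9 and 22.9 CPM in the line. Its log2 change was -2.82 ± 0.43 (edgeR adjusted p = 2.1e-05), and -3.98 without library 4. The receptor gene Csf1r had 3221, 3603 and 2536 CPM in macrophages and 0.244, 0.354 and 0.208 CPM in the line, a log2 change of 13.49 ± 0.37 (edgeR adjusted p = 1.6e-14). Per length, the ligand Csf1 averaged 15.9 ± 9.58 TPM, the unit corrected for transcript length, in macrophages and 261 ± 60.2 TPM in the line (SD), and Il34 averaged 3.22 ± 3.07 TPM in macrophages and 24.4 ± 7.47 TPM in the line (SD). The receptor averaged 1233 ± 153 TPM in macrophages and 0.133 ± 0.0416 TPM in the line. The growth factor gene Csf2 was too low to be tested, with at most 0.0987 CPM in any of the 6 libraries.

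The chemokine pairs Cxcl12 with Cxcr4 and Cx3cl1 with Cx3cr1 were split the same way. Cxcl12 (chromosome 6, 117168535 to 117181367), which attracts and retains leukocytes, had 1.15, 0.6 and 5.98 CPM in macrophages, against 519.9, 339 and 307 CPM in the line. It was the line ligand with the largest fall in macrophages among the split pairs, at -7.22 ± 0.53 (log2, edgeR adjusted p = 3.6e-09) and -8.78 without library 4. Its receptor gene Cxcr4 (chromosome 1, 128588199 to 128592293) had 139, 177 and 82.5 CPM in macrophages and 0.397, 0.218 and 0.578 CPM in the line, a log2 change of 8.34 ± 0.38 (edgeR adjusted p = 8.4e-12). Cx3cl1, the membrane-bound chemokine fractalkine, had 2.6, 3.28 and 13 CPM in macrophages and 33.1, 33.5 and 63.6 CPM in the line. Library 4 lay well above the other macrophages here, and the log2 change was -2.78 ± 0.59 (edgeR adjusted p = 4.3e-04), or -3.86 without it. The fractalkine receptor Cx3cr1, a marker of monocytes and resident macrophages, had 1015, 1107 and 762 CPM in macrophages, against 0.214, 0.191 and 0.0694 CPM in the line.

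The remaining line-to-macrophage pairs joined a cytokine, an adhesion molecule and matrix proteins to their receptors. Lif, a cytokine of the interleukin-6 family, had 2.43, 2.65 and 5.03 CPM in macrophages and 42.8, 40.1 and 27.3 CPM in the line, a log2 change of -3.44 ± 0.27 (edgeR adjusted p = 1.0e-08), or -3.84 without library 4. Its receptor gene Lifr had 45.3, 37.3 and 35 CPM in macrophages and 0.916, 0.845 and 1.2 CPM in the line, a change of 5.29 ± 0.18. Nectin3, a cell adhesion molecule, had 0.493, 0.884 and 1.5 CPM in macrophages and 33.2, 46 and 40.1 CPM in the line. Its partner Nectin1 was the receptor nearest the 4-fold limit in this direction, at 18, 15.8 and 24.3 CPM in macrophages and 3.51, 3.79 and 4.67 CPM in the line. The collagen chain gene Col1a1 had 4.87, 4.36 and 30.9 CPM in macrophages and 50.9, 99.6 and 102 CPM in the line, and its log2 change of -2.65 ± 0.62 (edgeR adjusted p = 0.001) was -4.17 without library 4. Lair1, an inhibitory receptor for collagen on leukocytes, had 317, 259 and 183 CPM in macrophages and 0.0305, 0 and 0 CPM in the line. Tnc, the matrix protein tenascin C, had 2.73, 1.67 and 40.1 CPM in macrophages and 165, 192 and 116 CPM in the line. Most of its level in macrophages came from library 4, and the log2 change was -3.40 ± 0.76 (edgeR adjusted p = 7.4e-04) with that library and -6.15 without it. Itga9, the integrin subunit that binds tenascin C, had 225, 276 and 115 CPM in macrophages, against 0.183, 0.164 and 0.116 CPM in the line.

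The last 4 split pairs in this direction had a partner under 5 CPM on its high side. Mst1r, the receptor of macrophage stimulating protein (Mst1), had 1.38, 3.69 and 2.9 CPM in macrophages and 0 counts in the line, and Ednrb, an endothelin receptor, had 1.41, 3.95 and 2.96 CPM in macrophages and 0 counts in the line. Kit, the receptor of stem cell factor, had 4.08, 3.41 and 3.39 CPM in macrophages and 0.0305, 0 and 0.0231 CPM in the line. Its ligand gene Kitl was abundant in the line, at 3.39, 3.35 and 18.7 CPM in macrophages against 92.4, 153 and 218 CPM in the line. The ligands Mst1, Edn1 and Col17a1 averaged 3.4, 0.705 and 0.892 CPM in the line. Mst1r apart, the genes named in this paragraph stand outside the naming rule and are given to complete the split pairs.

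**Figure D3:**
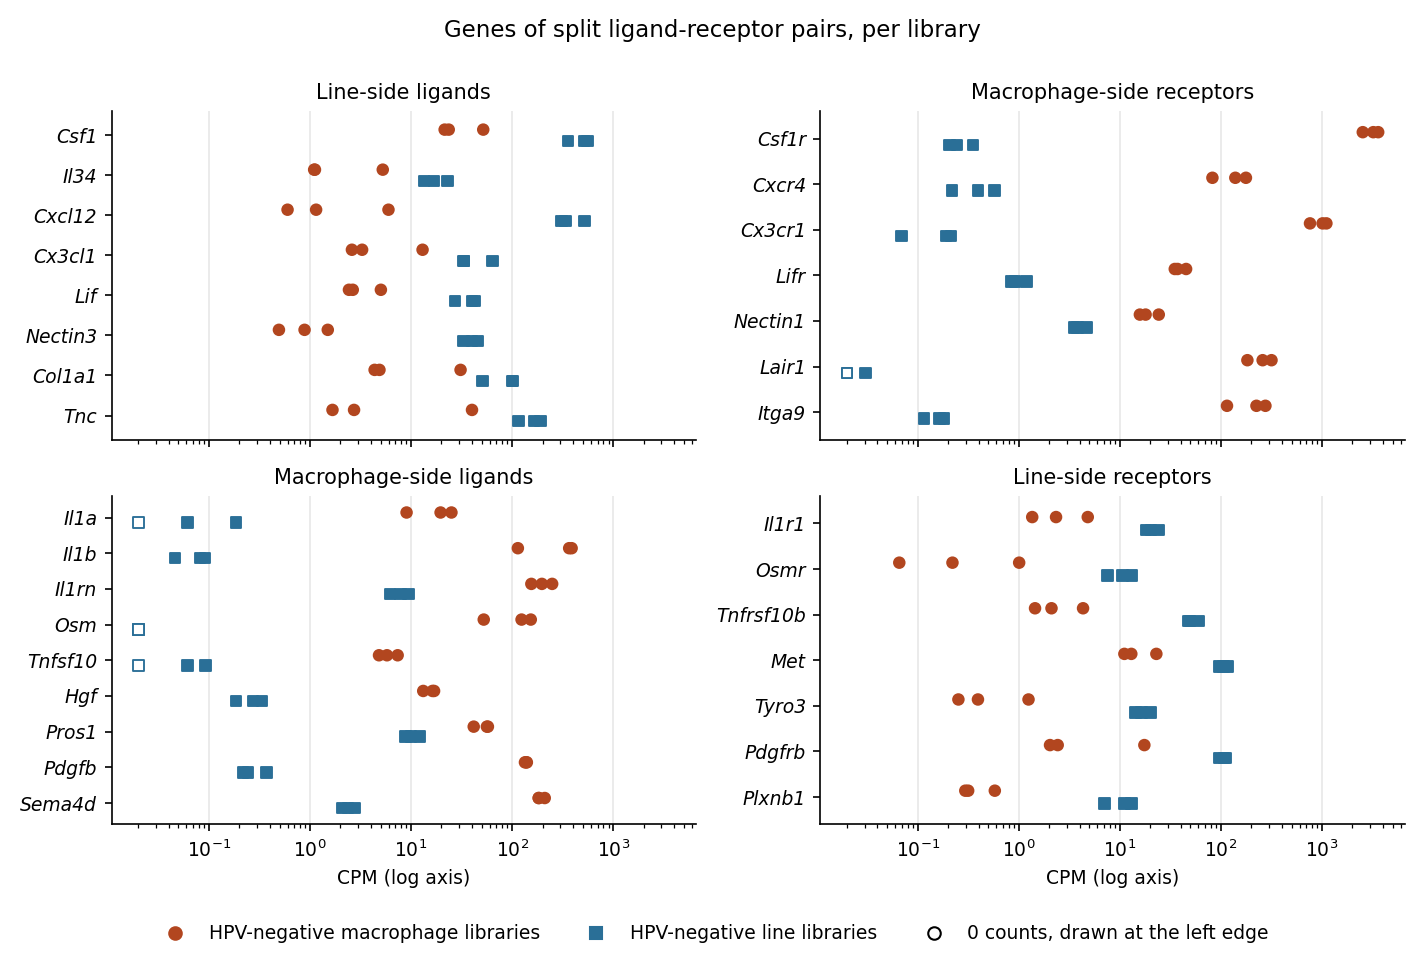
CPM (log axis) per library of the genes in split pairs with at least 5 CPM on the high side, macrophages as circles above line libraries as squares, with open symbols at the left edge for 0 counts. No gene shown has overlapping groups, which also holds for 75.9% of all genes tested, and these genes were chosen as at least 4-fold apart. Tnc spans 1.67 to 40.1 CPM in macrophages, below 116 to 192 CPM in the line.

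In the other direction, interleukin-1 and related cytokines of the macrophages faced receptors of the line. Il1b (chromosome 2, 129364570 to 129371139), a main inflammatory cytokine of macrophages, had 388, 367 and 114 CPM in macrophage libraries 1, 2 and 4, against 0.0916, 0.0818 and 0.0463 CPM in line libraries 1, 2 and 3. Library 4 had less than the other macrophages, and the log2 change was 11.92 ± 0.63 (edgeR adjusted p = 6.5e-11). Il1a, which signals through the same receptor, had 19.6, 25.1 and 9.03 CPM in macrophages and 0.061, 0 and 0.185 CPM in the line. The receptor antagonist Il1rn, which blocks that receptor, had 197, 249 and 155 CPM in macrophages and 9.49, 6.19 and 7.82 CPM in the line, a log2 change of 4.68 ± 0.45 (edgeR adjusted p = 9.9e-08). The receptor gene Il1r1 had 2.34, 1.36 and 4.82 CPM in macrophages and 20.3, 24.3 and 18.2 CPM in the line, a change of -2.88 ± 0.31 (edgeR adjusted p = 3.8e-07), or -3.49 without library 4. Per length, Il1b averaged 348 ± 171 TPM, Il1rn 174 ± 33.5 TPM and Il1a 14.1 ± 5.87 TPM in macrophages (SD). Osm, oncostatin M, had 153, 124 and 52.4 CPM in macrophages and 0 counts in the line, at least 4119-fold higher. Its receptor gene Osmr had 0.0658, 0.221 and 1.01 CPM in macrophages and 13.2, 7.55 and 10.6 CPM in the line, a log2 change of -4.57 ± 0.60, or -6.13 without library 4. Tnfsf10, which encodes the death ligand TRAIL, was low, at 7.37, 5.78 and 4.82 CPM in macrophages and 0.061, 0 and 0.0925 CPM in the line. Its mouse receptor gene Tnfrsf10b, a p53 target, had 1.45, 2.11 and 4.33 CPM in macrophages and 48, 60.4 and 49.5 CPM in the line, a change of -4.31 ± 0.29 (edgeR adjusted p = 1.1e-09), or -4.87 without library 4.

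Growth factor and guidance genes made up the rest of the macrophage-to-line pairs. Hgf (chromosome 5, 16553495 to 16620152), hepatocyte growth factor, had 16.3, 16.9 and 13.2 CPM in macrophages and 0.336, 0.273 and 0.185 CPM in the line, a log2 change of 5.87 ± 0.39 (edgeR adjusted p = 8.9e-10). Its receptor gene Met (chromosome 6, 17463800 to 17573980), an oncogenic tyrosine kinase of epithelium, had 13, 11.1 and 23 CPM in macrophages and 106, 117 and 97.6 CPM in the line, a change of -2.76 ± 0.22 (edgeR adjusted p = 1.2e-08), or -3.13 without library 4. Pdgfb had 139.9, 134 and 138 CPM in macrophages and 0.244, 0.218 and 0.37 CPM in the line. This ligand of platelet-derived growth factor receptors varied little among macrophages. Pdgfrb, a receptor usually found on mesenchymal cells, had 2.04, 2.43 and 17.5 CPM in macrophages and 95.9, 112 and 107 CPM in the line, a change of -3.83 ± 0.60, or -5.53 without library 4. Sema4d, a semaphorin of leukocytes, had 210.3, 184 and 183 CPM in macrophages and 2.38, 2.07 and 2.75 CPM in the line, a log2 change of 6.32 ± 0.12 (edgeR adjusted p = 4.6e-16). Its receptor gene Plxnb1 had 0.296, 0.316 and 0.58 CPM in macrophages and 7.05, 11.1 and 13 CPM in the line. Pros1, which bridges dying cells to TAM receptors, had 57.6, 56.3 and 41.7 CPM in macrophages and 8.76, 9.95 and 12.3 CPM in the line, a change of 2.33 ± 0.17. The TAM receptor gene Tyro3 had 0.395, 0.253 and 1.25 CPM in macrophages and 16.5, 14.4 and 20.1 CPM in the line, a change of -4.72 ± 0.37 (edgeR adjusted p = 7.4e-09), or -5.69 without library 4.

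Pairs with both partners on one side differed by family. Apart from Egfr, which is in the fixed set, the genes named here stand outside the naming rule and were chosen after their values were seen. Of 17 CC chemokine pairs 11 had both partners on the macrophage side and 0 on the line side. The monocyte attractant Ccl2 had 371, 332 and 386 CPM in macrophages and 0.916, 0.463 and 0.578 CPM in the line, and its receptor gene Ccr2 had 579, 531 and 612 CPM in macrophages and 0.061, 0.164 and 0.0694 CPM in the line. Of 43 pairs of checkpoint, phagocytosis and contact genes 15 had both partners on the macrophage side. Several of these rested on low receptors, with Pdcd1, Ctla4 and Cd28 averaging 3.94, 2.5 and 1.76 CPM in macrophages. Markers of T cells and natural killer cells were present in these libraries too, and the part of such cells was not tested. Of 10 epidermal growth factor pairs 6 had both partners on the line side. The ligand gene Areg, amphiregulin, had 1.32, 0.821 and 5.61 CPM in macrophages and 91, 139 and 80.4 CPM in the line, a log2 change of -5.31 ± 0.49, or -6.58 without library 4. The receptor gene Egfr was at 1.51, 1.36 and 5.86 CPM in macrophages and 14.6, 16.8 and 12.2 CPM in the line, a change of -2.31 ± 0.59 (edgeR adjusted p = 0.0021), or -3.32 without library 4. Of 20 semaphorin, ephrin, slit and netrin pairs 7 had both partners on the line side, among them Efna1 with Epha2. The ephrin receptor gene Epha2 had 6.94, 9.09 and 22.6 CPM in macrophages and 485, 461 and 316 CPM in the line, a change of -5.03 ± 0.34, or -5.70 without library 4.

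Several widely studied ligands were not split by 4-fold or stood on the macrophage side without a split partner. Vegfa, the main growth factor of blood vessels, had 137, 144 and 159 CPM in macrophages and 187, 180.2 and 176 CPM in the line, a log2 change of -0.30 ± 0.09 (edgeR adjusted p = 0.0053). Spp1, osteopontin, had 1398, 1602 and 2488 CPM in macrophages and 1153, 1653 and 1949.7 CPM in the line, with overlapping groups and no call at 0.21 ± 0.28 (edgeR adjusted p = 0.52). Neither kind of cell was low in Spp1. Tgfb1, which encodes transforming growth factor beta, had 463, 489 and 354 CPM in macrophages and 21.9, 24.4 and 43.7 CPM in the line, a change of 3.86 ± 0.22 (edgeR adjusted p = 1.4e-10). The PD-1 ligand gene Cd274 had 106, 101 and 74.8 CPM in macrophages and 5.68, 4.52 and 5.02 CPM in the line, a change of 4.22 ± 0.14 (edgeR adjusted p = 1.7e-13). The second PD-1 ligand gene, Pdcd1lg2, was at 4.11, 5.59 and 1.43 CPM in macrophages and 0.0305, 0.0273 and 0 CPM in the line.

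Macrophage gene groups stood almost wholly on the macrophage side. Over all genes tested, 38.7% were called higher in macrophages and 37.4% in the line, the shares to set beside each list below. All 20 genes of macrophage surface identity were called higher in macrophages, with a median log2 change of 12.65 against 0.01 for all genes. The sort genes were among them: Ptprc (CD45) had 719, 668 and 493 CPM in macrophages and 0.0916, 0.109 and 0.0694 CPM in the line, Itgam (CD11b) had 2188, 2070.3 and 1972 CPM in macrophages and 0.214, 0.382 and 0.0925 CPM in the line, and Adgre1 (F4/80) had 908, 969 and 650.3 CPM in macrophages and 0, 0.164 and 0.0231 CPM in the line. Since the cells were sorted by these proteins, their levels check the labels and are no finding. Of 15 myeloid transcription factor genes 12 were called higher in macrophages and 0 lower, and Klf4, Runx1 and Gfi1 were not called. Irf8, a factor of monocyte and macrophage development, had 300.4, 324 and 225 CPM in macrophages and 0.0305, 0.0818 and 0.0231 CPM in the line. Of 15 Fc and phagocytic receptor genes 12 were called higher in macrophages and 2 higher in the line. Fcgr2b, the inhibitory Fc gamma receptor, had 1559, 1777 and 1137 CPM in macrophages, against 0.0916, 0.218 and 0.0694 CPM in the line, whereas the line-side members were Tyro3 and the engulfment receptor Megf10. Megf10 had 0.263, 0.537 and 11.6 CPM in macrophages and 45.7, 33.6 and 43.2 CPM in the line.

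Complement and antigen presentation genes followed the same direction. Of 16 complement genes tested 15 were called higher in macrophages (median log2 change 7.17), and the exception was C1s1, a protease of the classical pathway, with 0.461, 0.316 and 2.41 CPM in macrophages and 18.3, 14.4 and 26.3 CPM in the line. C1qc had 3155, 3648 and 2069 CPM in macrophages and 0.183, 0.491 and 0.0925 CPM in the line, so that the C1q chain and the C1s protease lay on opposite sides. Of 12 genes of MHC class II and costimulation 11 were called higher in macrophages, and the exception was the costimulatory ligand Cd80. Cd80 had 23.8, 28.1 and 23.6 CPM in macrophages and 38.9, 80.9 and 52.2 CPM in the line, a log2 change of -1.19 ± 0.27 (edgeR adjusted p = 7.2e-04). Its relative Cd86 ran the other way, with 129, 151 and 99.2 CPM in macrophages and 0, 0.0273 and 0 CPM in the line. The class II chain gene H2-Aa had 3364, 2418 and 1049 CPM in macrophages, lowest in library 4, and 0.122, 0.409 and 0.162 CPM in the line. All 15 genes of MHC class I and antigen processing were called higher in macrophages, with a median of 3.84. Psmb8, a subunit of the immunoproteasome, had 262, 229.8 and 177 CPM in macrophages and 0.427, 0.218 and 0.856 CPM in the line, a change of 8.74 ± 0.28 (edgeR adjusted p = 1.1e-13).

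Innate sensing and effector genes rose in macrophages with few exceptions. All 15 toll-like receptor and adaptor genes were called higher in macrophages (median log2 change 5.47). Tlr8, an endosomal RNA sensor, had 102, 108 and 81.6 CPM in macrophages and 0 counts in the line, at least 3659.8-fold higher. Of 20 interferon-stimulated genes 18 were called higher in macrophages and 0 lower (median 3.21), with the chemokine gene Cxcl10 at 224, 196 and 119 CPM in macrophages and 1.43, 0.845 and 0.601 CPM in the line. Of 18 inflammatory mediator genes 16 were called higher in macrophages (median 8.12). The chemokine gene Ccl3 had 48.1, 43.8 and 23.8 CPM in macrophages and 0 counts in the line, at least 1449-fold higher. Arg1, the arginine-degrading enzyme often measured in tumour macrophages, had 1472, 1557 and 1944 CPM in macrophages and 0.214, 0.218 and 0.139 CPM in the line. The exception was Ptgs2, the prostaglandin-forming enzyme COX-2, with 31.8, 28.3 and 27.2 CPM in macrophages and 328, 197 and 140.1 CPM in the line, a log2 change of -2.93 ± 0.25 (edgeR adjusted p = 2.0e-08), or -2.87 without library 4. Of 19 lysosomal and lipid-handling genes 15 were called higher in macrophages and 1 in the line (median 2.79). Ctss, the lysosomal protease cathepsin S, had 3865, 3774 and 2463 CPM in macrophages and 0.275, 0.463 and 0.278 CPM in the line. Gpnmb, a lysosomal glycoprotein often used as a marker of lipid-laden macrophages, was the line-side member, at 11.1, 14.6 and 40.3 CPM in macrophages and 634, 631 and 841 CPM in the line, a change of -4.99 ± 0.42 (edgeR adjusted p = 2.0e-08), or -5.75 without library 4.

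**Figure D4:**
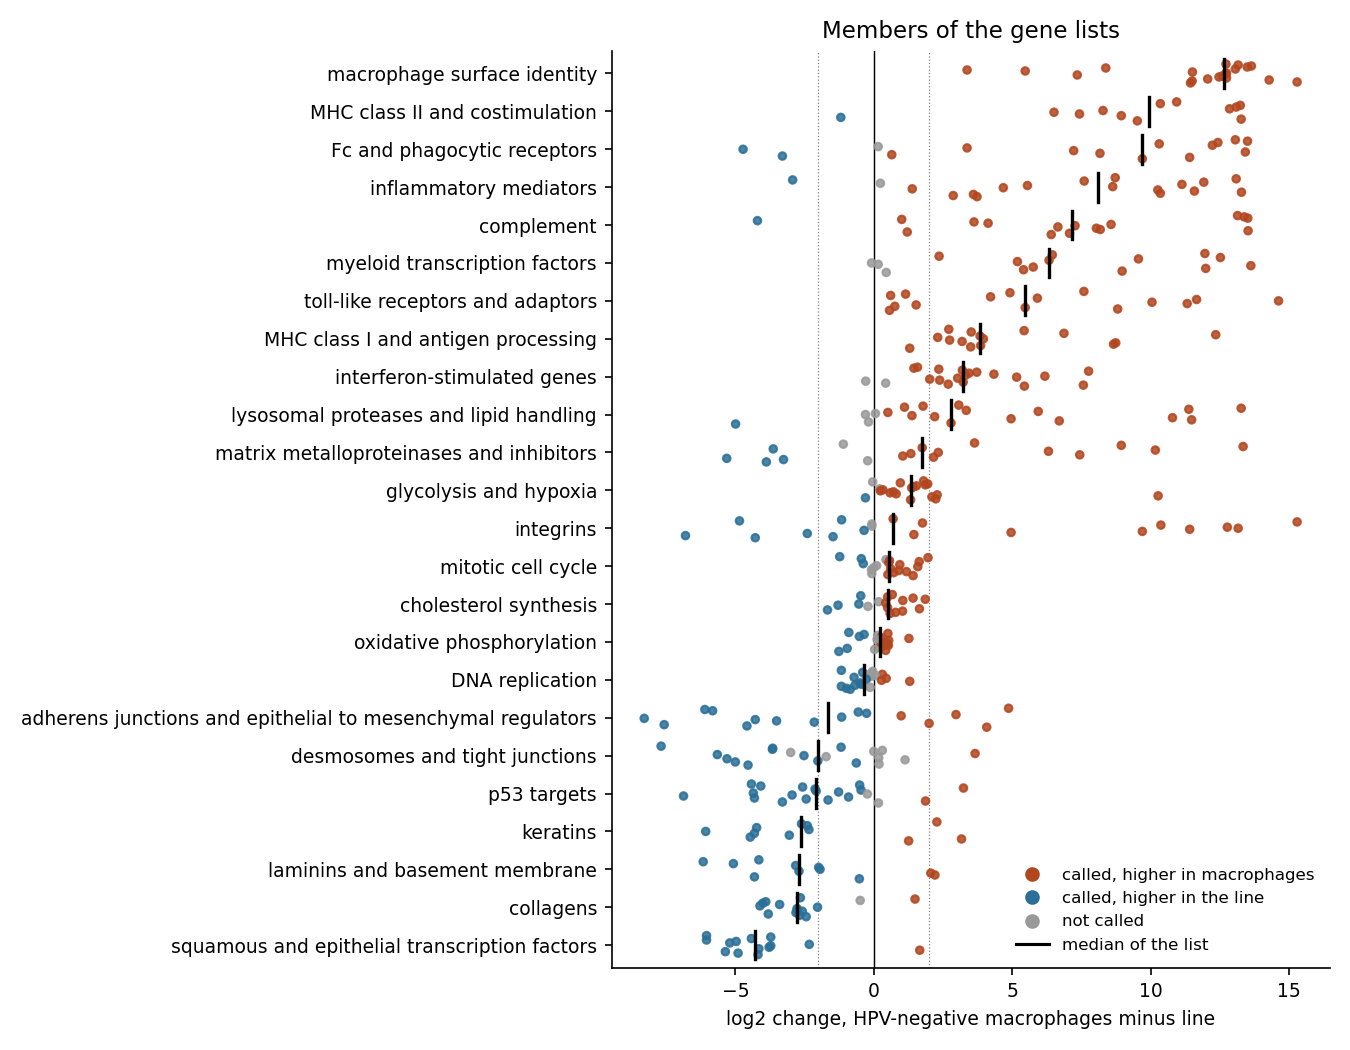
Log2 change (macrophages minus line) of each tested member of 24 gene lists, ordered by the list's median (black bar), coloured by the call, with dotted lines at 4-fold. Macrophage identity, MHC class II and Fc receptor lists lie highest, squamous transcription factors lowest (median -4.30), and cell cycle, cholesterol and oxidative phosphorylation genes lie within 4-fold of 0.

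Most of the listed epithelial transcription factor and keratin genes were called higher in the line. Of 14 squamous and epithelial transcription factor genes tested 13 were called higher in the line, with a median log2 change of -4.30. Klf5, a factor of proliferating epithelium, had 0.0987, 0 and 2.04 CPM in macrophages and 50.5, 46.9 and 46.9 CPM in the line, a change of -6.04 ± 0.64, or -9.84 without library 4. Trp63, the defining factor of squamous basal cells, was low in the line as well, at 0.0329, 0 and 0.0915 CPM in macrophages and 0.793, 2.21 and 6.04 CPM in the line. Of 11 keratin genes tested 8 were called higher in the line and 3 higher in macrophages, those 3 being Krt20, Krt6a and Krt80. Krt19 had 0.987, 1.26 and 8.7 CPM in macrophages and 57.4, 59.5 and 126 CPM in the line, and Krt8 had 21.1, 13.6 and 60.3 CPM in macrophages and 148, 125 and 227 CPM in the line. Krt8 changed by -2.40 ± 0.39 (edgeR adjusted p = 4.2e-05), or -3.25 without library 4. Of 19 desmosome and tight junction genes 11 were called higher in the line and 1 higher in macrophages. Perp, a desmosomal p53 target, had 0.921, 0.915 and 12 CPM in macrophages and 196, 250.1 and 253 CPM in the line, a change of -5.65 ± 0.70, or -7.97 without library 4. Of 16 adherens junction and transition genes 11 were called higher in the line, led by Snai2, and 5 higher in macrophages, led by Cdh1 with a change of 4.87 ± 0.36 (edgeR adjusted p = 3.5e-09).

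Collagen and laminin genes were mostly higher in the line. Of 15 collagen genes tested 13 were called higher in the line and 1, Col1a2, higher in macrophages, a call lost without library 4. Col5a1, a fibrillar collagen chain, had 2.24, 2.02 and 34.4 CPM in macrophages and 206, 266 and 199 CPM in the line, a log2 change of -4.11 ± 0.73 (edgeR adjusted p = 8.8e-05), or -6.70 without library 4. Of 11 laminin and basement membrane genes 9 were called higher in the line and 2, Nid1 and Nid2, higher in macrophages. Lama5, a laminin chain of epithelial basement membranes, had 0.526, 0.884 and 11.2 CPM in macrophages and 316, 253 and 343 CPM in the line, a change of -6.16 ± 0.72, or -8.72 without library 4. Nid2, the linker protein nidogen, ran the other way at 74.7, 103 and 64.6 CPM in macrophages and 19.4, 15.6 and 17.3 CPM in the line. The 19 integrin genes divided, with 10 called higher in macrophages and 7 in the line, beside 38.7% and 37.4% of all genes tested. Itga3, a laminin receptor subunit, had 1.94, 1.8 and 32.3 CPM in macrophages and 352, 291 and 399.9 CPM in the line, a change of -4.85 ± 0.75, or -7.52 without library 4.

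Matrix-degrading enzymes and their inhibitors divided between the cells. Of 17 genes 11 were called higher in macrophages and 4 in the line. Mmp9, gelatinase B, had 436, 824 and 516 CPM in macrophages and 0.061, 0.0545 and 0.0463 CPM in the line, a log2 change of 13.34 ± 0.51 (edgeR adjusted p = 9.8e-13). Mmp12 had 339.6, 257 and 339 CPM in macrophages and 0.275, 0.354 and 0.185 CPM in the line. Timp3, a matrix-bound inhibitor of these enzymes, had 5.79, 7.35 and 215 CPM in macrophages and 928, 1217 and 1213 CPM in the line. Library 4 held most of the macrophage Timp3 counts, and the change was -3.88 ± 0.95 (edgeR adjusted p = 0.0015) with it and -7.39 without it.

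Genes of the p53 response were mostly higher in the line. Of 20 p53 targets 16 were called higher in the line and 2 higher in macrophages (median log2 change -2.10). Mdm2, the ubiquitin ligase that restrains p53, had 116, 87 and 238 CPM in macrophages and 3064, 3791 and 2607 CPM in the line, a change of -4.42 ± 0.29 (edgeR adjusted p = 7.7e-10), or -4.94 without library 4. Eda2r, a receptor gene induced by p53, had 0.329, 0.379 and 2.65 CPM in macrophages and 106, 182 and 114 CPM in the line. Sesn1 and Btg2 were the exceptions, Sesn1 with 102, 116 and 96.6 CPM in macrophages and 8.94, 9.78 and 14.5 CPM in the line. Of 20 mitotic genes 12 were called higher in macrophages and 3 in the line (median 0.56). With scaling by total counts these were 8 and 4 (median 0.23). Of 20 DNA replication genes 4 were called higher in macrophages and 10 in the line (median -0.34), or 1 and 15 with scaling by total counts. Both lists had 0 members at least 4-fold apart in either direction. Of all genes tested, 38.7% were called higher in macrophages and 37.4% in the line, with 16.8% and 14.2% at least 4-fold apart. The mitotic gene Bub1b had 89, 90.8 and 89.3 CPM in macrophages and 36.7, 24.3 and 25.5 CPM in the line, and the replication helicase gene Mcm2 had 91.3, 88 and 82.4 CPM in macrophages and 195, 186 and 207 CPM in the line. Of 20 glycolysis and hypoxia genes 17 were called higher in macrophages and 1, Vegfa, in the line (median 1.35), or 14 and 2 with scaling by total counts. Slc16a3, a lactate exporter, stood out with 241, 232 and 302 CPM in macrophages and 0.336, 0.109 and 0.185 CPM in the line, a change of 10.27 ± 0.25 (edgeR adjusted p = 3.4e-15). Of 20 oxidative phosphorylation genes 11 were called higher in macrophages and 5 in the line (median 0.23), again beside 38.7% and 37.4% of all genes. Of 17 cholesterol synthesis genes 11 were called higher in macrophages and 4 in the line (median 0.50). With scaling by total counts, which moved the median of all genes to -0.30, the median of the oxidative phosphorylation list was -0.09 with 5 called higher in macrophages and 7 in the line, and cholesterol synthesis had 5 called each way.

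The same change was measured in the HPV-positive MEER pair and in the pair of SCCVII, a line of squamous carcinoma from C3H/HeJ mice, with 3 macrophage and 3 line libraries in each. Strain therefore changes with tumour model in the SCCVII pair, and strain and model cannot be told apart there. The HPV-negative change differed by more than 2-fold from the mean of those other changes in 1079 of 15835 genes (6.81%, edgeR glmTreat, adjusted p of 0.05), 511 upward (3.23%) and 568 downward (3.59%). Among the ligand and receptor genes it did so in 62 of 321 tested (19.3%), 33 upward and 29 downward. Differences below are on the log2 scale and can come from the macrophages, the line or both. Their ± are approximate standard errors derived in the same way, from edgeR's test of the difference against 0. Levels in the groups are therefore given for several genes, as means over 3 libraries, with ± SD where shown. A difference printed without the levels of every group is not assigned to either kind of cell. A difference from the mean also need not hold against each of the other models.

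Of the 38 genes of split pairs 7 were called for such a difference: Cxcl12, Sema4d, Hgf, Nectin1, Pros1, Il1rn and Mst1r. Cxcl12 averaged 2.58 ± 2.96 CPM in HPV-negative macrophages and 389 ± 115 CPM in their line (SD). It averaged 0.225 ± 0.0356 CPM in HPV-positive macrophages and 0.347 ± 0.0684 CPM in the HPV-positive line, and 6.93 ± 0.327 CPM in SCCVII macrophages and 156 ± 2.67 CPM in the SCCVII line. The difference was -4.66 ± 1.00 (edgeR adjusted p = 0.0097), or -6.22 (edgeR adjusted p = 1.2e-06) without macrophage library 4, and the HPV-positive line all but lacked the transcript. Sema4d averaged 192 ± 15.6 CPM in HPV-negative macrophages and 2.4 ± 0.341 CPM in their line, 247 ± 13.1 CPM in HPV-positive macrophages and 26.1 ± 2.04 CPM in their line, and 178 ± 15.4 CPM in SCCVII macrophages and 40.7 ± 1.49 CPM in the SCCVII line. Its difference was 3.63 ± 0.13 (edgeR adjusted p = 2.3e-10), with macrophage means of 178 to 247 CPM and the lowest line mean in HPV-negative MEER. Hgf differed by 3.41 ± 0.43 and Nectin1 by 1.80 ± 0.30, whereas Pros1 and Il1rn differed by -2.00 ± 0.21 and -2.55 ± 0.55. Hgf averaged 15.4, 24.6 and 8.73 CPM in HPV-negative, HPV-positive and SCCVII macrophages, against 0.264, 0.919 and 7.63 CPM in their lines. In the same order, Nectin1 averaged 19.4, 14.9 and 40.5 CPM, against 3.99, 12.6 and 24.7 CPM in the lines. Pros1 averaged 51.9, 31.3 and 77.3 CPM, against 10.3, 1.59 and 3.79 CPM. Il1rn averaged 200.3, 733 and 112 CPM, against 7.83, 11.5 and 0.315 CPM. Without library 4, the calls of Nectin1 (1.62, edgeR adjusted p = 0.082) and Il1rn (-2.38, edgeR adjusted p = 0.072) were lost, and Tnc (-3.90, edgeR adjusted p = 5.4e-05) and Mst1 (-3.70, edgeR adjusted p = 0.024) gained one.

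The largest upward differences among ligand and receptor genes were in Ephb2, Mst1r and Tnfrsf11a. Ephb2, an ephrin receptor, averaged 3.63 ± 1.42 CPM in HPV-negative macrophages and 0.0806 ± 0.0485 CPM in their line, 3.93 ± 1.04 CPM in HPV-positive macrophages and 0.751 ± 0.349 CPM in their line, and 0.194 ± 0.197 CPM in SCCVII macrophages and 46.3 ± 1.41 CPM in the SCCVII line. The difference of 8.18 ± 0.66 (edgeR adjusted p = 5.5e-07) thus rested largely on the SCCVII line. Tnfrsf11a, the receptor RANK of osteoclast precursors, averaged 141 ± 9.75 CPM in HPV-negative macrophages and 0.0182 ± 0.0315 CPM in their line, 79.1 ± 5.37 CPM in HPV-positive macrophages and 0.875 ± 0.156 CPM in their line, and 196 ± 11.2 CPM in SCCVII macrophages and 6.64 ± 0.904 CPM in the SCCVII line. Mst1r averaged 2.66, 0.266 and 0.32 CPM in HPV-negative, HPV-positive and SCCVII macrophages, and at most 0.101 CPM in any line. The sizes of the Tnfrsf11a and Mst1r differences depend on the prior count, since the HPV-negative line had at most 3 counts of either gene.

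Gas6, Igf1 and Cd24a had the largest downward differences. Gas6, a ligand of TAM receptors, averaged 257 ± 113 CPM in HPV-negative macrophages and 64.9 ± 34.1 CPM in their line, 51 ± 23.7 CPM in HPV-positive macrophages and 4.01 ± 1.32 CPM in their line, and 110.4 ± 12.1 CPM in SCCVII macrophages and 0.0617 ± 0.0549 CPM in the SCCVII line. The HPV-negative macrophages and line both had the highest Gas6 mean of their kind, and the difference was -5.16 ± 0.65 (edgeR adjusted p = 1.2e-04). Within the HPV-negative pair Gas6 rose by 1.98 ± 0.41 on the log2 scale, just under the 4-fold limit. Igf1, insulin-like growth factor 1, averaged 19.9 ± 9.78 CPM in HPV-negative macrophages and 2.09 ± 0.595 CPM in their line. It averaged 17.3 ± 11.3 CPM in HPV-positive macrophages and 0.00788 ± 0.0137 CPM in their line, and 5.24 ± 1.04 CPM in SCCVII macrophages and 0.0617 ± 0.0549 CPM in the SCCVII line. The size of the Igf1 difference depends on the prior count too, since the HPV-positive line had almost no counts. Cd24a, a surface glycoprotein that is a phagocytosis checkpoint ligand in human tumours, averaged 15.7 ± 3.68 CPM in HPV-negative macrophages and 122 ± 13.6 CPM in their line. It averaged 144 ± 11.4 CPM in HPV-positive macrophages and 202 ± 41.1 CPM in their line, and 2.07 ± 0.637 CPM in SCCVII macrophages and 0.0996 ± 0.0793 CPM in the SCCVII line. Beyond ligands and receptors, Mdm2 differed by -2.96 ± 0.31 (edgeR adjusted p = 7.4e-05), with 3154 ± 597 CPM in the HPV-negative line, 178 ± 23.7 CPM in the HPV-positive line and 383 ± 4.67 CPM in the SCCVII line.

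**Figure D5:**
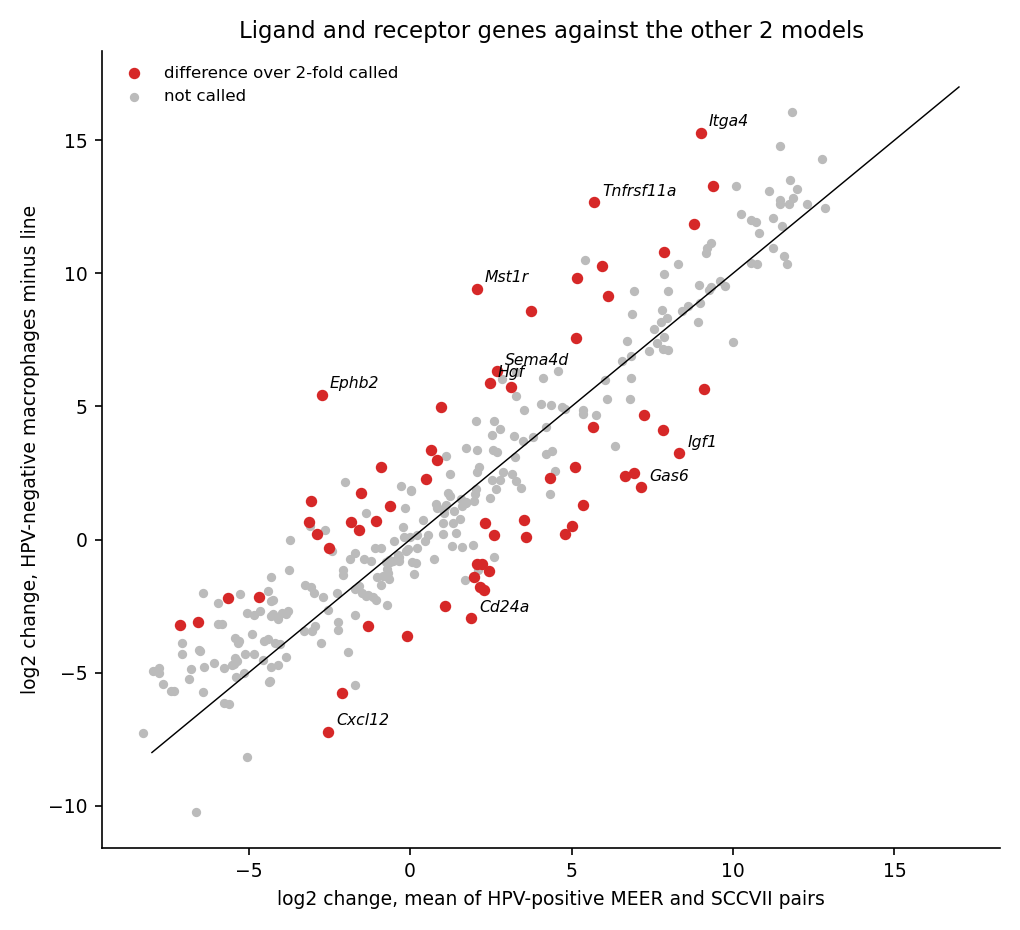
Log2 change of each tested ligand or receptor gene in HPV-negative macrophages minus line (vertical axis) against the mean change of the HPV-positive MEER and SCCVII pairs (horizontal axis), with the line of equal change. The 62 genes called for a difference over 2-fold are in red, with Ephb2 (8.18) and Gas6 (-5.16) at the extremes, and sizes of genes with 0 counts in a group depend on the prior count.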

How the data were processed

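A kit for stranded mRNA was used for sequencing, per the labels' protocols. The authors deposited expected counts (estimated reads per gene, not always whole) and TPM, as RSEM writes them per the file headers. Per the submitters' processing notes, tools were FastQC, MultiQC, STAR 2.5.3a and RSEM 1.3.0 with build mm10/GRCm38. The strand setting is not given in the sources used here, so overlapping and antisense genes, and genes with near-identical copies, are uncertain. Of 36793 genes, 35243 (95.8%) matched a symbol of GENCODE M21, whose 1-based GRCm38 coordinates are given. Coordinates of promoters are those of RefSeq.

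Expected counts were rounded (12.9% were not whole) and tested with edgeR 4.0.16 (R 4.3.3, limma 3.58.1): quasi-likelihood, TMM, filterByExpr (minimum count 10, minimum total 15), prior count 0.125, Benjamini-Hochberg adjustment at 0.05. The 18 macrophage and line libraries of all 3 models shared a fit, with a biological coefficient of variation of 17.6%. CPM are TMM-scaled. Floors of 3 counts cover counting error only. Replicates of a group all differed beyond sampling noise. Members and lists were chosen with earlier results of these data known.

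Genes named are the 10 largest rises and falls among calls without overlap between the groups and with 10 CPM or more throughout the higher group, genes of split pairs with at least 5 CPM on the high side, up to 2 rises and 2 falls of each list, a fixed set, and the 3 largest differences each way from the other models among ligand and receptor genes. Some are left out for length, and 1 is not reported here. Alternatives were other scalings, no filter, DESeq2 1.42.0, the 6 libraries alone, other fold limits, a replicate block and leaving out each library. Tnfsf12, listed as a ligand, was not analysed here.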

Additional observations from a re-analysis of the deposited data

Results flagged for a closer look

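Of the 139 genes named by rule, 36 were flagged, beside 6.81% of all genes tested. Their change between macrophages and line differed by more than 2-fold from the mean of the HPV-positive MEER and SCCVII pairs in edgeR's glmTreat test. Ephb2, Mst1r, Tnfrsf11a, Gas6, Igf1 and Cd24a were named because of this difference, so that their flags were fixed by the choice. All differences are log2 values, HPV-negative change minus the mean of the other changes. The SCCVII pair in that mean also differs in strain, and the part of strain was not tested. Sizes of genes with 0 to 3 counts in a group (Pf4, Vav1, Tyrobp, Itga4, Cd86, H2-Q7, Mst1r, Tnfrsf11a and Igf1 among them) depend on the prior count. Without macrophage library 4, 32 of the 36 calls held. Those of Nectin1, Il1rn, Pf4 and Cd274 were lost, and the differences of Cxcl12, C1s1 and Col1a2 moved by over 1.5 times, to -6.22, -5.75 and 2.76.

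Upward differences among ligand and receptor genes were 8.18 for Ephb2, 7.37 for Mst1r, 6.98 for Tnfrsf11a, 6.29 for Itga4, 3.88 for Cd86, 3.63 for Sema4d, 3.41 for Hgf, 2.43 for Cxcl10 and 1.80 for Nectin1. Downward ones were -5.16 for Gas6, -5.08 for Igf1, -4.85 for Cd24a, -4.66 for Cxcl12, -3.63 for Cd80, -2.55 for Il1rn, -2.00 for Pros1 and -1.44 for Cd274. Cd274 averaged 94.2 ± 17 CPM in HPV-negative macrophages and 5.07 ± 0.578 CPM in their line, 719 ± 43 CPM in HPV-positive macrophages and 0.726 ± 0.0734 CPM in their line, and 24.3 ± 2.19 CPM in SCCVII macrophages and 9.37 ± 0.858 CPM in the SCCVII line (SD, n = 3 each). In macrophages and in the line, the HPV-negative mean lay between those of the other models. The Cd274 difference is thus from their mean and does not set HPV-negative MEER apart from each of them.

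Macrophage genes had differences of 6.98 for Pf4, 5.94 for the lipid exporter Abcg1, 5.94 for H2-Q7, 5.65 for Vav1, 4.89 for the scavenger receptor Stab1, 3.54 for Tyrobp, 2.99 for Tlr7, 2.31 for Fcgr2b and 2.26 for Psmb8. Stab1 averaged 2846 ± 674 CPM in HPV-negative, 629 ± 94.9 CPM in HPV-positive and 1493 ± 201 CPM in SCCVII macrophages, with 16.9 ± 0.955 CPM in the SCCVII line. Matrix genes had differences of 6.14 for Mmp9, 6.10 for Nid1, 3.55 for Col1a2 and -4.58 for Nid2. Nid1 averaged 537 ± 1.28 CPM in the SCCVII line, and under 1 CPM in every other group. Nid2 averaged 80.9 ± 20.1 CPM in HPV-negative macrophages and 17.4 ± 1.9 CPM in their line, against 0.0572 ± 0.00728 CPM in the SCCVII line. The other differences were 4.55 for Slc16a3, 2.06 for Bub1b, 1.61 for Ccnb2, -2.38 for Btg2, -2.96 for Mdm2 and -4.31 for C1s1.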

How the results depend on the processing

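Of the 139 named genes under 12 alternative settings, 1645 of 1661 values kept their direction and their side of the threshold, 16 lost the call (among them values of Krt6a, Krt14, Rfc3 and Col1a2) and 0 reversed. Of 88 counts under the alternatives, 83 stayed within 1.5 times. The others follow from the limits set: with 2-fold in place of 4-fold for a side, split pairs were 35 from line to macrophage and 14 from macrophage to line, with 8-fold they were 6 and 4, and with the difference from the other models tested against 0 in place of 2-fold, 5389 genes were called.

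Leaving out 1 library at a time gave 5927 to 6207 genes higher in macrophages and 5620 to 5913 higher in the line, 2659 to 2803 and 2176 to 2507 at least 4-fold apart, 12 to 16 and 10 to 12 split pairs, and 959 to 1119 genes differing from the other models. Of named line-side genes with more than 3 counts in each group, 32 of 42 moved by over 1.5 times without macrophage library 4, against 0 of 43 on the macrophage side. The replicate numbers 1 and 2 are shared between macrophages and line, but same-numbered libraries did not deviate together (correlations 0.03 and 0.01). With a replicate block, 5960 and 5778 genes were called, 2663 and 2411 were at least 4-fold apart, 15 and 12 pairs were split and 1052 genes differed from the other models. DESeq2 called 882 such genes. Genes at or under 3 counts in a group set the limit of depth, since their changes are bounds.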
